A study of Homo sapiens with 4 samples.

Results

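Transcripts of 10 genes that carry the mutant G alpha q signal of uveal melanoma were followed in the cell line 92.1 and in a resistant derivative of it. The genes are the alpha subunits GNAQ and GNA11, the receptor CYSLTR2, the phospholipases PLCB1, PLCB3 and PLCB4, the RAS activator RASGRP3, and TRIO, ARF6 and PTK2. They were taken by name for their known place in the route, and all 10 had a value among the 11650 genes measured. Uveal melanoma is a tumour of the pigment cells of the eye, and 92.1 is an established line grown from one such tumour, known to carry an activating mutation in GNAQ. RNA was sequenced in 2 libraries of parental cells and 2 libraries of resistant cells. Both groups are labelled as uveal melanoma cells, and the labels name neither the agent to which the second group is resistant nor whether it is 1 clone. The cell line label counts upward from sample to sample, while all titles name 92.1, and the titles were followed. The labels do not say whether replicate libraries stem from separate cultures, so the spread behind each p-value may be technical only.

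G alpha q is a switch protein that is turned on by receptors on the cell surface and turned off when it cleaves its bound GTP. Nearly all uveal melanomas carry a mutation that holds this switch on, most often in GNAQ or its close relative GNA11, and otherwise in the receptor CYSLTR2 or the effector PLCB4. The active switch binds phospholipase C beta, whose product diacylglycerol drives protein kinase C and RASGRP3 toward RAS and ERK, and it also binds TRIO, which turns on small GTPases upstream of focal adhesion kinase (PTK2) and YAP. ARF6, a GTPase of vesicle traffic, moves G alpha q between the cell surface and internal membranes.

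All values are FPKM, that is fragments mapped to a gene, scaled by transcript length and by each library's mapped total, which allows levels of different genes to be compared. The 2 parental libraries correlated at 0.975 over all genes on the log2(FPKM + 1) scale and the 2 resistant libraries at 0.952, with 0.935 to 0.958 between groups. The true sequencing depth is unknown, so no counting interval could be drawn. All 12 melanocyte lineage markers had a value, and their summed level, most of it TYRP1, was 2948 and 2612 FPKM in parental and 3394 and 2533 FPKM in resistant libraries. Of the 12, however, 9 (75%) lay below 0, against 58.6% of all genes tested, with a median log2 fold change of -0.38 (resistant minus parental). With separate groups, 6 (50%) were lower, against 31.8% of all genes tested. Above 0 were TYRP1 (0.28, higher in both resistant libraries), TYR (0.28) and RAB38 (0.13). The pigment enzyme DCT stood at 4.88 and 5.46 FPKM in parental and 0.486 and 0.517 FPKM in resistant libraries (limma adjusted p = 0.0544), and SOX10 (log2 fold change -0.58), OCA2 (-0.68) and MC1R (-0.55) were also lower in both resistant libraries. DCT and MC1R lay below 1 FPKM in both resistant libraries. They reached the mean of 1 FPKM needed for testing only through the parental ones. Markers of other cells were few. None of 6 endothelial markers had a value. Of 8 leukocyte markers only CD68 and LCP1 had one, with a summed level of 32.6 and 27.4 FPKM in parental and 13.2 and 10.7 FPKM in resistant libraries. Of 9 epithelial markers 3 keratins had one, with sums of 3.12 and 3.91 against 9.39 and 17.7 FPKM, and of 9 fibroblast markers 4 had one, with sums of 31.3 and 29.3 against 25.0 and 21.4 FPKM. That lower sum came from FBLN1 (26.1 and 23.3 against 15.4 and 14.0 FPKM), while the collagens COL1A1 (0.742 and 0.841 against 1.16 and 1.89 FPKM) and COL1A2 (0.00848 and 0.00683 against 0.747 and 0.531 FPKM) were higher in both resistant libraries and LUM overlapped. The part of these shifts in the results below was not tested.

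Sequence from the reference shows how far reads of these genes can be told apart and what lies before the RefSeq start of the 2 members with the smallest p-values. GNAQ and GNA11 have coding sequences of 1077 bases each in GENCODE release 29, identical at 846 bases (78.6%). The longest stretch that both share without a mismatch is 26 bases, from base 928 to 953 of either coding sequence, printed here because only a read inside such a run would fit both coding sequences equally:
GNAQ and GNA11 shared run: ctgaagatgttcgtggacctgaaccc
Over stretches of 50 bases, 0 of the 5460 in the annotated CYSLTR2 transcripts occur in a transcript of any other gene on either strand, and the same was found for PLCB3, PLCB4, TRIO and ARF6. The share found elsewhere was 4.33% for GNAQ, all in its pseudogene GNAQP1, and 12.2% for GNA11. The 777 shared GNA11 stretches lay in 443 other genes, GNAQ not among them, with 356 in AC005262.2. It was 2.48% for RASGRP3, 0.508% for PLCB1 and 0.678% for PTK2.

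Windows of 250 bases before the annotated start, taken from the RefSeq promoter table (GRCh38.p14), were examined for 6 of the 10 genes. Windows of the remaining genes were not analysed here, whether or not that source holds them. The windows of CYSLTR2 and ARF6 are printed because these genes had the smallest p-values, and they are of opposite kinds. Capitals mark matches, on either strand, to any of 7 motifs: the E-box CACGTG, the core CATGTG, the GC box GGGCGG, the TATA box TATAAA, the AP-1 site TGANTCA, the cAMP response element core TGACG and the TEAD site GGAATG. Both windows lie on the plus strand, at chr13:48653679-48653928 for CYSLTR2 and chr14:49892832-49893081 for ARF6. GENCODE release 29 starts CYSLTR2 upstream of the RefSeq start, at 48653711, so most of its window lies inside the gene as GENCODE draws it:
CYSLTR2: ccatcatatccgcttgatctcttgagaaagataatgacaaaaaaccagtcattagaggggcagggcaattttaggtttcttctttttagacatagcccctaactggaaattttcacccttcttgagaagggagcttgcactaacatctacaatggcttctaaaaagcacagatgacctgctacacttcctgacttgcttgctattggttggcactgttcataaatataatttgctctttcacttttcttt
ARF6: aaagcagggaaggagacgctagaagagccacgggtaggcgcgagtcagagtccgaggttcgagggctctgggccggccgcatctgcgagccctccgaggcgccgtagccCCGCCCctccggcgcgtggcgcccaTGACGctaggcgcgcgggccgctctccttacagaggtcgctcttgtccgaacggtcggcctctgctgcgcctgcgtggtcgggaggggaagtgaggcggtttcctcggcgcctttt
The CYSLTR2 window is 39.2% G and C, lower than the median of 58.0% over all 35116 windows, and holds 1 CpG. None of the 7 motifs is spelled in it. The ARF6 window is 69.6% G and C with 32 CpG, and spells 1 GC box, which 42.6% of all windows hold, and 1 TGACG, which 21.2% hold. The GNA11, PLCB3 and TRIO windows are also rich in G and C (80.4%, 78.0% and 66.4%) and spell 7, 5 and 3 GC boxes. RASGRP3 has 4 annotated starts, with windows of 39.2% to 50.8% G and C.

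**Figure D1:**
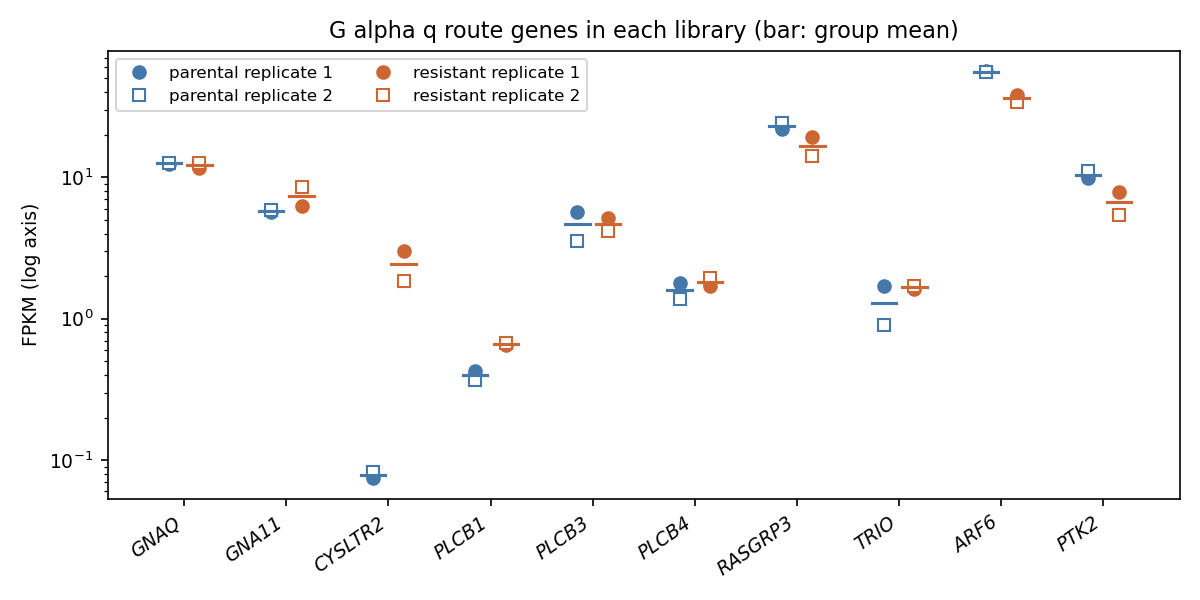
FPKM of the 10 genes on a log axis, with parental libraries in blue and resistant libraries in orange, replicate 1 filled, replicate 2 open and a bar at each group mean. CYSLTR2 stands below 0.1 FPKM in both parental libraries, against 1.83 and 3.03 FPKM in resistant cells, while GNAQ lies between 11.7 and 12.6 FPKM in all 4.

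None of the 10 genes passed the test in limma, which compared resistant with parental libraries and adjusted over the 10271 genes whose mean reached 1 FPKM, at a threshold of 0.05. Of the 9 genes tested, 3 had an unadjusted limma p under 0.05: CYSLTR2 toward higher and ARF6 and PTK2 toward lower values in resistant cells. At that same unadjusted threshold 6.06% of all genes tested lay higher and 10.2% lower. After adjustment, limma called 0.0487% of all genes higher and 0.00974% lower. Separate groups were seen for 2 of the 9 toward higher values (GNA11 and CYSLTR2), against 19.1% of all genes tested, and for 3 toward lower values (RASGRP3, ARF6 and PTK2), against 31.8% of all genes tested. Both shares are near these backgrounds. The median log2 fold change of the 9 was 0.03 and that of all genes -0.08. PLCB1 had a mean of 0.530 FPKM and was not tested.

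The receptor CYSLTR2 differed most between the groups. It encodes a receptor for cysteinyl leukotrienes, lipid mediators of inflammation, and couples to G alpha q (ENSG00000152207.7_2, chromosome 13 from 48653711 to 48711226 in GENCODE release 29 on GRCh38). The parental libraries held CYSLTR2 at 0.0744 and 0.0818 FPKM, and the resistant libraries at 3.03 and 1.83 FPKM. Both resistant libraries lay far above both parental ones, with a ratio of 31.2 between the means and of 22.4 between the closest libraries. The log2 fold change was 1.65 ± 0.21 (SE), with a 95% confidence interval of 1.11 to 2.19, and missed the threshold (limma adjusted p = 0.0788, unadjusted p = 4.5e-04). With a pseudocount of 0.1 in place of 1 the log2 fold change was 3.79 (limma adjusted p = 0.0861, within 0.0586 to 0.133 over the alternatives). CYSLTR2 was under 1 FPKM in both parental libraries and passed the filter on low values only through the resistant ones.

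Relative to GNAQ, the CYSLTR2 level was 0.600% and 0.647% in parental cells and 25.9% and 14.6% in resistant cells. Among the 11650 genes with a value, CYSLTR2 lay at the percentiles 0.824 and 0.687 in parental cells and 36.5 and 27.7 in resistant cells. The larger group mean of every gene was at least 0.5009 FPKM. A gene this low in parental cells thus had a value only through the resistant ones. Its low parental rank was partly fixed by that cut and is a description only. In bulk RNA, expression in fewer cells and less RNA per cell cannot be told apart.

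Genes on either side of CYSLTR2 differed less between the groups than it did. Next to it on the same strand lies FNDC3A, which stood at 5.16 and 5.97 FPKM in parental and 10.7 and 6.33 FPKM in resistant libraries, with a log2 fold change of 0.50 (limma adjusted p = 0.425). RCBTB2, on the other side and the opposite strand, stood at 2.02 and 2.03 against 1.94 and 1.37 FPKM. The tumour suppressor RB1, 3 genes away by order of gene start, ends at 48599436, nearer to CYSLTR2 than RCBTB2, which ends at 48533256. RB1 stood at 7.30 and 7.83 against 11.03 and 6.50 FPKM, so that its groups overlapped. Among the 6 genes with a value on each side, log2 fold changes ran from -0.47 for RCBTB1 to 0.50 for FNDC3A. These neighbours were chosen for naming after the CYSLTR2 values were seen.

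**Figure D2:**
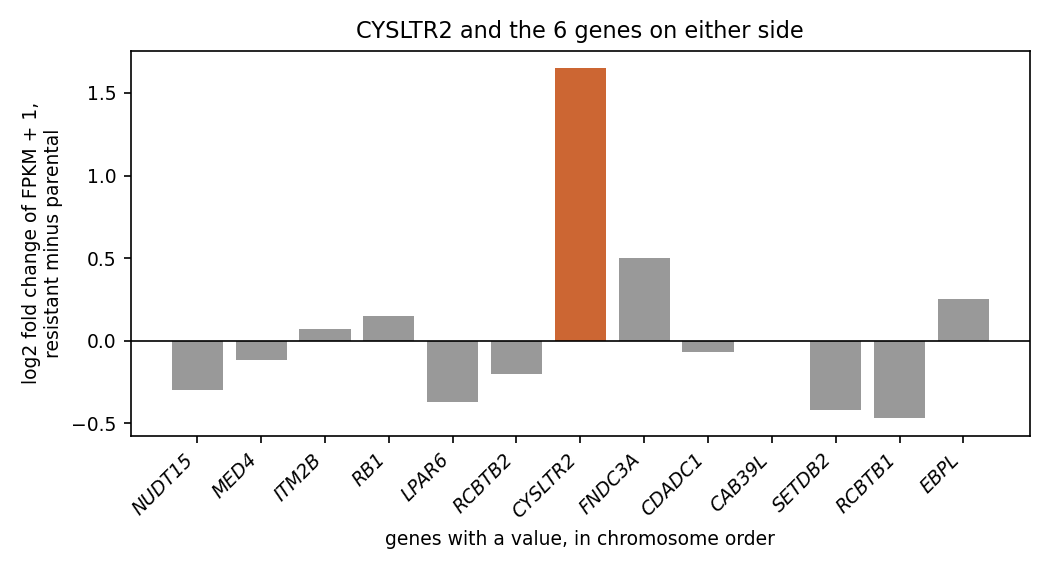
Log2 fold change of FPKM + 1 (resistant minus parental) for CYSLTR2, in orange, and the 6 genes with a value on each side of it, in grey, in chromosome order. CYSLTR2 stands at 1.65, and its neighbours lie between -0.47 and 0.50.

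The mutated driver of the line, GNAQ, was at nearly the same level in all libraries. GNAQ (ENSG00000156052.10_2, chromosome 9 from 77716087 to 78031458) measured 12.4 and 12.6 FPKM in parental cells against 11.7 and 12.6 FPKM in resistant cells. The groups overlapped, and the log2 fold change was -0.04 ± 0.17 (SE; 95% confidence interval -0.46 to 0.38, limma adjusted p = 0.916). The interval leaves room for changes of that size in either direction, and the value turned to 0.05 with median-of-ratios scaling and to 0.06 under quantile normalization. The values sum over both alleles, so the share of mutant GNAQ transcript was not analysed here.

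GNA11, which encodes the closest relative of G alpha q and stands in for it as the mutated driver in other tumours, measured 5.64 and 5.90 FPKM in parental cells against 6.30 and 8.54 FPKM in resistant cells (ENSG00000088256.8_2, chromosome 19 from 3094410 to 3124004). Both resistant libraries were higher, the first only slightly. Its log2 fold change was 0.30 ± 0.21 (SE; 95% confidence interval -0.23 to 0.83, limma adjusted p = 0.513), and it was 0.11 without resistant replicate 2 and 0.49 without resistant replicate 1. GNAQ made up 68.7% and 68.2% of the summed FPKM of the pair in parental and 65.0% and 59.5% in resistant libraries. The log2 ratio of GNA11 to GNAQ was -1.13 and -1.10 in parental cells and -0.89 and -0.56 in resistant cells. Scaling each library by a factor cannot move this ratio, though quantile normalization can. The ratio was higher in both resistant libraries by a mean of 0.39 (exact permutation test, two-sided, p = 0.33, the smallest p that 2 against 2 libraries allow). It was 0.23 higher without resistant replicate 2 and 0.56 higher without resistant replicate 1.

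The phospholipases cleave a membrane phosphoinositide into diacylglycerol and inositol trisphosphate, and PLCB4 is itself mutated in some uveal melanomas. PLCB3 was the most abundant of the 3 (ENSG00000149782.11_2, chromosome 11 from 64251523 to 64269150). PLCB3 stood at 5.72 and 3.56 FPKM in parental and 5.14 and 4.17 FPKM in resistant libraries, so that the resistant values lay between the parental ones. The log2 fold change was 0.03 ± 0.26 (SE; 95% confidence interval -0.62 to 0.67, limma adjusted p = 0.968), and its sign turned under some alternatives.

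PLCB4 stood at 1.79 and 1.37 FPKM in parental and 1.71 and 1.94 FPKM in resistant libraries, with overlapping groups (log2 fold change 0.13, 95% confidence interval -0.32 to 0.59, limma adjusted p = 0.743; ENSG00000101333.16_2, chromosome 20 from 9068763 to 9481242). PLCB1, its neighbour on that chromosome from 8077251 to 8968360 (ENSG00000182621.17_3), was the least abundant of the 3. PLCB1 stood at 0.429 and 0.366 FPKM in parental and 0.656 and 0.671 FPKM in resistant libraries, so that both resistant libraries were higher. Tested without the filter on low values, its log2 fold change was 0.25 and did not pass (limma adjusted p = 0.381).

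Within the summed FPKM of the 3 phospholipases, PLCB3 took 72.0% and 67.2% in parental cells and 68.5% and 61.5% in resistant cells. The PLCB4 share was 22.6% and 25.9% against 22.8% and 28.6%, with overlapping groups (mean difference 1.47 percentage points, exact permutation test, two-sided, p = 0.667). PLCB1 took 5.41% and 6.91% of the sum in parental and 8.74% and 9.89% in resistant libraries, and here the groups did not overlap (exact permutation test, two-sided, p = 0.33). The sum itself was 7.94 and 5.29 FPKM in parental and 7.51 and 6.78 FPKM in resistant libraries.

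**Figure D3:**
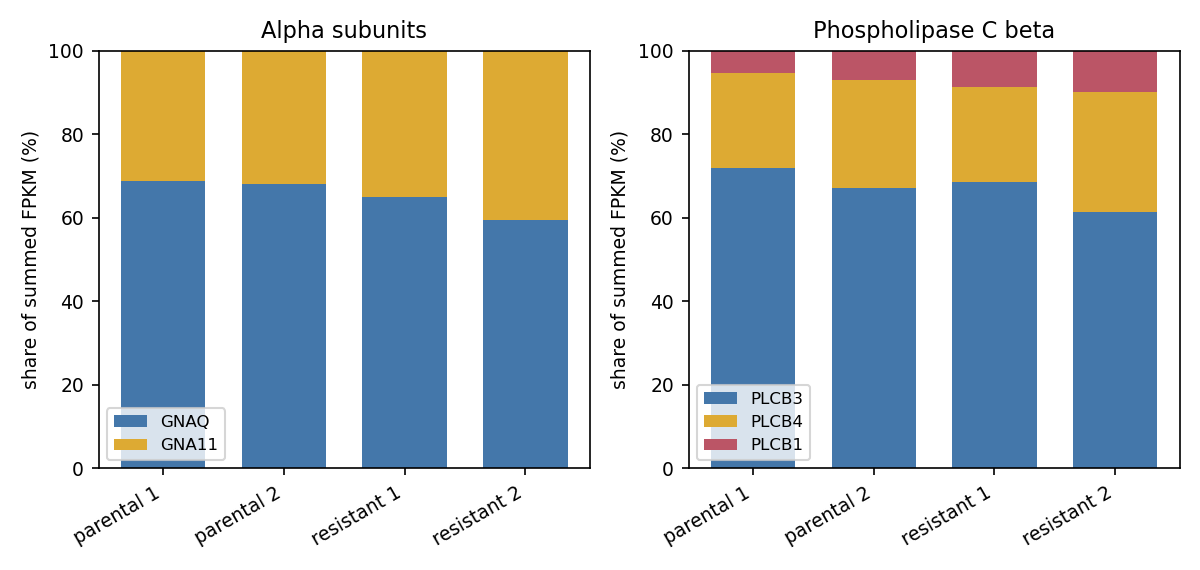
Share of summed FPKM (%) taken by GNAQ and GNA11 (left) and by PLCB3, PLCB4 and PLCB1 (right) in each library. GNAQ takes 68.7% and 68.2% in parental cells against 65.0% and 59.5% in resistant cells, and PLCB3 takes the largest share of the phospholipases in all 4.

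RASGRP3 loads RAS with GTP in response to diacylglycerol and is known to link mutant G alpha q to ERK in this tumour (ENSG00000152689.17_2, chromosome 2 from 33436324 to 33564750). RASGRP3 measured 22.0 and 24.2 FPKM in parental cells against 19.3 and 14.1 FPKM in resistant cells, more than GNAQ in every library. Both resistant libraries were lower than both parental ones. The log2 fold change was -0.46 ± 0.21 (SE; 95% confidence interval -0.98 to 0.07), which missed the threshold (limma adjusted p = 0.351). It was -0.25 without resistant replicate 2 and -0.67 without resistant replicate 1.

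TRIO is an exchange factor that loads small GTPases with GTP (ENSG00000038382.18_2, chromosome 5 from 14143702 to 14532128). TRIO stood at 1.70 and 0.896 FPKM in parental and 1.62 and 1.71 FPKM in resistant libraries. Parental replicate 2 was low and the other 3 libraries lay close together, so the groups overlapped. The log2 fold change was 0.24 ± 0.22 (SE; 95% confidence interval -0.32 to 0.80, limma adjusted p = 0.624), and -0.02 without parental replicate 2.

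ARF6 was the most abundant of the 10 genes in every library (ENSG00000165527.6_3, chromosome 14 from 49893092 to 49897054). ARF6 measured 56.3 and 55.3 FPKM in parental cells against 38.2 and 33.9 FPKM in resistant cells. Both resistant libraries were lower, at 0.646 of the parental mean. Its log2 fold change was -0.62 ± 0.15 (SE; 95% confidence interval -1.01 to -0.23), which missed the threshold over all genes (limma adjusted p = 0.190, unadjusted p = 0.00904). Across the alternatives the log2 fold change ran from -0.70 to -0.52 and the limma adjusted p from 0.0603 to 0.869.

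PTK2 encodes focal adhesion kinase, which signals from sites of attachment to the matrix (ENSG00000169398.19_3, chromosome 8 from 140657900 to 141002216). PTK2 measured 9.88 and 11.03 FPKM in parental cells against 7.86 and 5.43 FPKM in resistant cells, again lower in both. The log2 fold change was -0.60 ± 0.22 (SE; 95% confidence interval -1.17 to -0.03), and it missed the threshold too (limma adjusted p = 0.294, unadjusted p = 0.0421). It was -0.37 without resistant replicate 2 and -0.83 without resistant replicate 1.

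**Figure D4:**
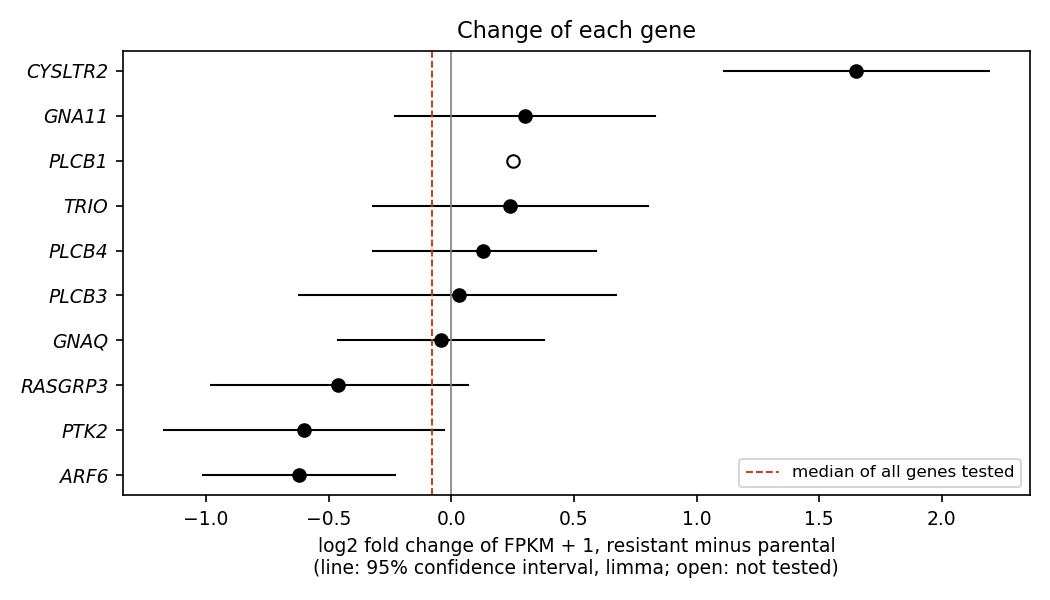
Log2 fold change of FPKM + 1 (resistant minus parental) with the 95% confidence interval from limma for the 9 tested genes and an open point for PLCB1, with the median of all genes tested dashed at -0.08. The intervals of CYSLTR2 (1.11 to 2.19), ARF6 (-1.01 to -0.23) and PTK2 (-1.17 to -0.03) do not hold 0, though none of the 9 passed after adjustment over all genes.

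By level, the parental order was ARF6, RASGRP3, GNAQ, PTK2, GNA11, PLCB3, PLCB4, TRIO, PLCB1 and CYSLTR2. Neighbours whose 2 libraries overlapped were GNA11 with PLCB3 and PLCB4 with TRIO. In resistant cells the order of means began with ARF6, RASGRP3 and GNAQ as before, followed by GNA11 and PTK2, which overlapped. CYSLTR2, last in parental cells, stood between PLCB3 and PLCB4, and its lower resistant value of 1.83 FPKM lay within the range of PLCB4. All of these are levels on the FPKM scale.

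The closest patterns across the 4 libraries were sought among the other 134 tested genes of the 10 and of the 9 lists described next, by Euclidean distance between log2(FPKM + 1) values centred on each gene's mean. RGS2 was closest to CYSLTR2 at a distance of 0.52, the largest of the 9 nearest distances. ILK was closest to ARF6 (0.12), RHOC to RASGRP3 (0.10) and RASGRP3 to PTK2 (0.15). TRIO had ZYX as its nearest gene (0.06), PLCB4 had CCND1 (0.13), GNAQ had ACAP3 (0.14), PLCB3 had GNB2 (0.16) and GNA11 had BCAR1 (0.31). With only 4 libraries such likeness is a description.

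Around the 10 genes, 182 further genes of the route were grouped in 9 lists, of which 139 had a value and 126 were tested. None passed in limma over all genes, and 12 toward higher (9.52%) and 15 toward lower values (11.9%) had an unadjusted limma p under 0.05, against 6.06% and 10.2% of all genes tested. Their groups did not overlap for 26 toward higher (20.6%) and 42 toward lower values (33.3%), close to the 19.1% and 31.8% of all genes tested. Their median log2 fold change was -0.10, near the -0.08 of all genes.

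Among receptors known to couple to G alpha q, 12 of 29 had a value and 9 were tested, with a median log2 fold change of 0.07. F2R, the thrombin receptor, stood at 14.4 and 17.1 FPKM in parental and 55.2 and 67.1 FPKM in resistant libraries (log2 fold change 1.89 ± 0.19 SE, limma adjusted p = 0.0742, range 0.0478 to 0.133 over the alternatives, the lowest of them without parental replicate 2). F2R took 16.3% and 19.9% of the summed FPKM of the receptors on the list in parental and 35.3% and 43.5% in resistant libraries. The endothelin receptor EDNRB, a gene of the melanocyte lineage, stood at 27.9 and 24.6 against 50.8 and 46.9 FPKM, and the lysophosphatidic acid receptor LPAR3 at 6.67 and 6.39 against 3.63 and 3.28 FPKM. The kisspeptin receptor KISS1R stood at 1.91 and 1.21 against 2.15 and 2.45 FPKM. S1PR3, a sphingosine phosphate receptor, stood at 1.34 and 1.28 against 1.99 and 1.74 FPKM, and EDNRA at 1.30 and 1.31 against 1.14 and 0.556 FPKM. Thus 4 of the 9 (F2R, EDNRB, KISS1R and S1PR3) lay higher in both resistant libraries, against 19.1% of all genes tested, and 2 (LPAR3 and EDNRA) lower, against 31.8%. EDNRA had a resistant mean of 0.849 FPKM and passed the filter on low values only through the parental libraries. S1PR3 and EDNRA were named after their values were seen. The KISS1R log2 fold change was 0.38, and 0.18 without parental replicate 2.

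Of the G protein subunits beside the 10 genes, 10 of 15 were tested, with a median of 0.08. The gamma subunit GNG11 stood at 32.2 and 30.1 FPKM in parental and 60.2 and 61.5 FPKM in resistant libraries (log2 fold change 0.95 ± 0.15 SE, limma adjusted p = 0.108). GNG4 lay lower in resistant cells, with 7.08 and 5.94 against 3.74 and 2.14 FPKM, as did GNG7 with a log2 fold change of -0.63 and the beta subunit GNB4 with -0.44. The most abundant, GNG5, stood at 131 and 132 against 179 and 164 FPKM. GNA14 and GNA15, the other alpha subunits of the class, had no value and were not analysed here.

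Among the brakes of the route, 10 of 13 were tested and the median was -0.38, with 3 above and 7 below 0 (70%, against 58.6% of all genes tested). With separate groups, 2 (20%) were higher and 6 (60%) lower, against 19.1% and 31.8% of all genes tested. At an unadjusted limma p under 0.05, 2 (20%) were higher and 3 (30%) lower, against 6.06% and 10.2% of all genes tested. RGS2, a GTPase activating protein with a preference for G alpha q, stood at 10.7 and 11.4 FPKM in parental and 28.4 and 24.2 FPKM in resistant libraries (log2 fold change 1.17 ± 0.17 SE, limma adjusted p = 0.103). RGS16, of the same family, stood at 3.39 and 3.06 against 6.27 and 6.51 FPKM. Receptor kinase GRK3 lay lower in both resistant libraries, at 3.69 and 2.55 against 5.86 and 6.03 FPKM, and so did the arrestin ARRB2, at 2.52 and 1.52 against 4.06 and 3.35 FPKM. None of these passed.

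Next to the phospholipases, the phosphoinositide list had 14 tested genes of 25 and a median of -0.10. The kinases that make the substrate of phospholipase C lay on opposite sides: PIP5K1C stood at 2.64 and 2.30 FPKM in parental and 4.41 and 4.31 FPKM in resistant libraries, and PIP5K1A at 7.13 and 6.63 against 4.32 and 4.47 FPKM. The calcium release channel ITPR3 had a log2 fold change of -0.55, which was -0.91 without resistant replicate 1 and -0.18 without resistant replicate 2, and the inositol phosphatase INPP5A had -0.45. ITPKB, the most abundant, had -0.06 with overlapping groups.

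Of the genes from protein kinase C to ERK, none had an unadjusted limma p under 0.05. All 17 with a value were tested, with 4 above and 13 below 0 (76.5%, against 58.6% of all genes tested). Their median was -0.11, which was -0.31 without resistant replicate 1 and 0.01 without resistant replicate 2. PRKCB had the lowest value, -0.53 with a 95% confidence interval of -1.40 to 0.35, and its groups overlapped (1.60 and 2.00 FPKM in parental, 1.73 and 0.374 FPKM in resistant libraries). It was named after its values were seen. The largest changes among those with separate groups were -0.38 for PRKCD (-0.13 without resistant replicate 2), -0.33 for PRKCZ, -0.26 for PRKCH and 0.25 for ARAF, and the most abundant gene, MAP2K2, had -0.02. The relatives RASGRP1, RASGRP2 and RASGRP4 had no value, so RASGRP3 was the one member of its family analysed here.

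Transcripts known to be induced by ERK lay on both sides of 0. All 16 were tested, 7 above and 9 below 0 (56.2%, against 58.6% of all genes tested), with a median of -0.09. At an unadjusted limma p under 0.05, 2 were higher (12.5%) and 5 lower (31.2%), against 6.06% and 10.2% of all genes tested. The 2 higher were DUSP6 and FOSL1. FOSL1, a transcription factor of the AP-1 family, stood at 0.710 and 0.624 against 1.35 and 1.57 FPKM and passed the filter on low values only through the resistant libraries. It was named after its values were seen. DUSP6, a phosphatase that acts on ERK, stood at 10.7 and 8.46 FPKM in parental and 15.9 and 24.9 FPKM in resistant libraries. The 5 lower were PHLDA1, MYC, ETV4, SPRY1 and ETV5. PHLDA1 stood at 39.7 and 38.8 against 20.8 and 19.3 FPKM (log2 fold change -0.93 ± 0.16 SE, limma adjusted p = 0.122). The transcription factors MYC and ETV4 had -0.91 and -0.78. SPRY1 and ETV5 had -0.54 and -0.49 and were also named after their values were seen. CCND1, which encodes cyclin D1, stood at 84.3 and 80.6 against 86.8 and 90.5 FPKM.

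The lists around TRIO, ARF6 and PTK2 had medians of -0.14, -0.18 and -0.14. Without resistant replicate 2 these were 0.04, -0.00 and 0.01, and with median-of-ratios scaling -0.05, -0.10 and -0.05. In the TRIO list (20 tested of 23), the kinase ROCK2 stood at 9.01 and 10.2 FPKM in parental and 15.1 and 18.1 FPKM in resistant libraries, and the Hippo kinase LATS2 at 5.33 and 5.63 against 10.02 and 7.65 FPKM. The exchange factors ARHGEF25 and ARHGEF11 had log2 fold changes of -0.58 and 0.46 (-0.82 and 0.29 without resistant replicate 1), and the abundant GTPase RAC1 had -0.01.

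In the ARF6 list (16 tested of 25), the exchange factors CYTH1 and CYTH3 had -0.45 and -0.43, in the direction of ARF6. Of the GTPase activating proteins, SMAP1 stood at 6.55 and 7.29 FPKM in parental and 10.95 and 24.1 FPKM in resistant libraries, with a wide gap between the resistant ones, and SMAP2 had -0.48. ASAP1, the most abundant, had -0.09.

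In the PTK2 list (14 tested of 15), the partners paxillin (PXN) and integrin-linked kinase (ILK) lay lower in both resistant libraries, as PTK2 did, with -0.52 and -0.51. BCAR1 and PARVA, which also sit at focal adhesions, had 0.41 and 0.39, and the adaptor CRK had -0.08. Limma adjusted p-values in these 3 lists were 0.196 or more.

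**Figure D5:**
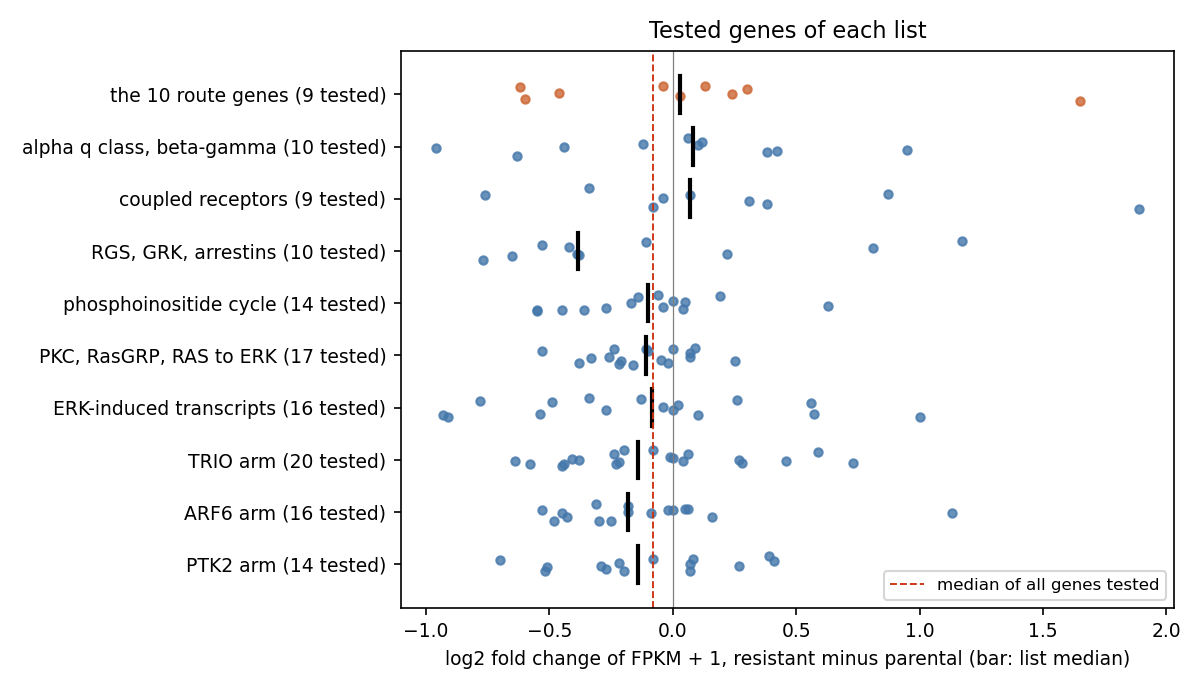
Log2 fold change of FPKM + 1 (resistant minus parental) of each tested gene, by list, with a black bar at the list's median and the median of all genes tested dashed at -0.08. List medians lie between -0.38 for RGS proteins, receptor kinases and arrestins and 0.08 for the G protein subunits, and single genes spread on both sides of 0 in every list.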

How the data were processed

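RNA was sequenced from 2 parental and 2 resistant libraries, grouped by title. Per the labels' protocols, ribosomal RNA was depleted or poly(A) RNA selected, and dUTP marked the strand. The deposited values are FPKM per the file headers. Per the submitters' processing notes the build was hg38, with no aligner, quantifier or annotation release given in the sources used here. The larger group mean was never below 0.5009 FPKM, so low genes seem to have been removed before deposit. Identifiers were matched to current symbols for 11575 of 11650 genes, and positions are those of GENCODE release 29.

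Values were taken as log2(FPKM + 1), which understates changes of low genes. The 10271 genes whose mean reached 1 FPKM were compared in limma 3.58.1 under R 4.3.3, two-sided, with its variance trend and a Benjamini-Hochberg adjusted p threshold of 0.05. Ratios and shares within a library were compared by exact permutation in Python 3.11.15 (scipy 1.17.1).

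The 10 genes and all lists were chosen with earlier results of these data known. Named were all 10 genes, up to 4 genes per list with the largest change and separate groups, the most abundant gene of each list and the nearest pattern to each of the 10. Alternatives changed the pseudocount, filter, scaling, variance trend and replicate block, or left out a library.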

Additional observations from a re-analysis of the deposited data

How the results depend on the processing

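In each of the 12 alternatives, 0 of the 10 genes passed in limma, with 1 to 5 at an unadjusted limma p under 0.05. CYSLTR2, GNA11, PLCB4, RASGRP3, ARF6 and PTK2 kept their direction wherever they were tested. All of these but PLCB4 had separate groups, so only the scaling alternatives could have turned their direction, and leaving out a library could not. GNAQ turned to 0.05 with median-of-ratios scaling, to 0.06 under quantile normalization and to 0.01 without resistant replicate 1, with a range of -0.09 to 0.01 when a library was left out. PLCB3 turned to -0.01 after rescaling to a common sum, -0.25 without parental replicate 2 and -0.10 without resistant replicate 1. TRIO turned to -0.02 without parental replicate 2. Over libraries left out, PLCB3 ranged from -0.25 to 0.31 and TRIO from -0.02 to 0.49. The common sum lay above the deposited sums of 282602 to 293481 FPKM, so the pseudocount of 1 weighed less after rescaling. CYSLTR2 stood at 2.83 in that setting. The median of the tested genes of the 10 was -0.46 at a minimum mean of 5 FPKM, which left 5 of them, 0.11 with median-of-ratios scaling, -0.01 after rescaling and 0.10 under quantile normalization, and it ran from -0.03 to 0.25 when a library was left out. The PLCB4 share difference ran from -1.44 to 4.37 percentage points in the same way, and the difference in log2 ratio of GNA11 to GNAQ from 0.225 to 0.56. Over all genes, limma called 3 higher with a pseudocount of 0.1, 3 with median-of-ratios scaling and 3 under quantile normalization, in place of 5, and 3 lower after rescaling, in place of 1. Leaving out a library gave 0 to 19 higher and 0 to 13 lower, where the lone library of a group is assumed to vary like the rest. List medians also rested on single libraries: without resistant replicate 2 those of the lists from protein kinase C to ERK, of ERK-induced transcripts and around TRIO and PTK2 turned to 0.01, 0.02, 0.04 and 0.01, and without resistant replicate 1 that of the G protein subunits turned to -0.06. The ERK-induced list also turned to 0.01 with median-of-ratios scaling and under quantile normalization, while the RGS, receptor kinase and arrestin list turned to 0.39 when only its 2 genes with a mean of 5 FPKM or more were used. Of 36 list genes named for their change, 11 moved by over 1.5 times when a library was left out. That 0 turned sign was fixed by the choice of genes with separate groups. With the replicate number as a block, 0 of the 10 genes passed and CYSLTR2 stood at 1.65 (limma adjusted p = 0.0981). The block changed no call among the 10. The deviations of same-numbered libraries correlated at -0.071, so the numbers were not taken as pairs. The cause of these shifts was not tested. Depth is unknown, so how many fragments stand behind values below 1 FPKM, as for CYSLTR2 in parental cells and PLCB1, cannot be given.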
